A study of Mus musculus with 5 samples.

Results

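The 4 Hox clusters of the mouse were followed across 5 tissues in RNA polymerase II chromatin immunoprecipitation and sequencing data. They were taken as 4 windows in the deposited coordinates: chr6:52100001-52220000 for Hoxa, chr11:96050001-96235000 for Hoxb, chr15:102745001-102875000 for Hoxc and chr2:74500001-74610000 for Hoxd. The windows covered 545 kb, or 109 of the 502038 bins of 5 kb counted over the genome, and are named for 38 Hox genes: 10 of Hoxa (Hoxa2 to Hoxa13), 10 of Hoxb (Hoxb1 to Hoxb13), 9 of Hoxc (Hoxc4 to Hoxc13) and 9 of Hoxd (Hoxd1 to Hoxd13). The rule for the windows uses positions and no measured value, but they were proposed with earlier results of these data known.

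The study asked which promoters are active in adult mouse tissues. Chromatin came from freshly dissected kidney, lung, brain, liver and spleen of the FVB strain. Each tissue had 1 library, made with the same Abcam antibody against RNA polymerase II. The labels name no treatment and give no age beyond adult, no sex and no number of animals per library. With 1 library per tissue there was no test between tissues and no p-value, and 95% intervals cover counting error only. The reads carry no molecular identifiers and so cannot be taken as independent molecules, and no interval covers differences between animals.

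Hox genes encode homeodomain transcription factors that set the position of structures along the body axis of the embryo. Within a cluster they lie in 1 transcriptional direction, and genes nearer the 3′ end are switched on earlier and further towards the head than genes nearer the 5′ end, an order called colinearity. Many adult tissues keep part of the Hox pattern of their place of origin, and forebrain lies in front of the territory of these genes. Hoxa5 is known for its role in lung development, and the group 11 genes Hoxa11, Hoxc11 and Hoxd11 for theirs in kidney development. Hoxb4 is known from blood stem cells, Hoxb1 and Hoxa2 from the hindbrain and branchial arches, and Hoxa13 and Hoxd13 from the digits.

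The 3′ edge of a window is the side of its low-numbered genes. From the 3′ edge, the named genes lie in the order Hoxa2, Hoxa3, Hoxa4, Hoxa5, Hoxa6, Hoxa7, Hoxa9, Hoxa10, Hoxa11 and Hoxa13 in Hoxa. The other orders are Hoxb1 to Hoxb9 and then Hoxb13; Hoxc4, Hoxc5, Hoxc6 and Hoxc8 to Hoxc13; and Hoxd1, Hoxd3, Hoxd4 and Hoxd8 to Hoxd13. These orders come from RefSeq genes on GRCm38, a later build than that of the reads. No annotation of the reads' build was used, so bins and peaks are given by position and not assigned to single genes, and tissue labels were not checked against marker genes.

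The promoters of 3 of the group 4 paralogues show how unlike the start regions of related Hox genes can be, which matters for an assay of polymerase at promoters. Hoxa4, also of group 4, was not among the promoters found. The 250 bases before the start of Hoxb4 (GRCm38.p6 chr11:96318017-96318266, plus strand), Hoxc4 (chr15:103034145-103034394, plus strand) and Hoxd4 (chr2:74721728-74721977, plus strand) are given from RefSeq, 5′ to 3′, with each CpG in capitals.
Hoxb4: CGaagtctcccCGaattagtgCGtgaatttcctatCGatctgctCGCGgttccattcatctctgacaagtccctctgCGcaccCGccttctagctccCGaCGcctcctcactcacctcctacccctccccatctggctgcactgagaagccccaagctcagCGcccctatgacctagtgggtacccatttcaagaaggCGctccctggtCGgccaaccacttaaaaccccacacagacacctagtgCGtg
Hoxc4: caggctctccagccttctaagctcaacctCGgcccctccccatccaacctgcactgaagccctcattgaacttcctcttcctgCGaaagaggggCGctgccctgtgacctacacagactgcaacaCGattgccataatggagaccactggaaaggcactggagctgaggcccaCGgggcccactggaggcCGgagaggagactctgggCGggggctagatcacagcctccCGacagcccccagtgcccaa
Hoxd4: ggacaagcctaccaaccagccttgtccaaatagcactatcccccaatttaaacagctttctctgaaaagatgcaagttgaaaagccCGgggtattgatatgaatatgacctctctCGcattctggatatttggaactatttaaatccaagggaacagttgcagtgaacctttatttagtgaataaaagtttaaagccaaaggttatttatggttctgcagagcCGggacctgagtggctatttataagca
Hoxb4 had 14 CpGs in this stretch, Hoxc4 had 8 and Hoxd4 had 3. Motifs were searched on either strand. Hoxd4 held CCAAT on the strand shown and TATAAA on the opposite strand, where the letters shown read TTTATA. Hoxb4 and Hoxc4 held neither motif. RefSeq promoters were found for 22 of the 38 members, with 24 starts. From Hoxb these were Hoxb1, Hoxb4 and Hoxb8 only, and from Hoxc Hoxc4 only, so the values mostly describe Hoxa and Hoxd. The 24 starts had a median of 12.5 CpGs, with the middle 50% between 7 and 20. Over 32851 mouse promoters of the same length the median was 6. TATAAA was found on either strand in 4 of the 24 (16.7%), against 12.4% of all promoters. CCAAT was found in 58.3%, against 33.8%, with overlap between motifs not removed. These matches describe the letters only.

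The clusters also hold microRNA genes among the Hox genes. Their products are given because the same seeds recur in different clusters, so that polymerase over several windows bears on the same microRNA family. The mature 5p sequences from RefSeq are written 5′ to 3′ with the seed, bases 2 to 8, in capitals.
miR-10a-5p: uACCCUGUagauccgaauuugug
miR-10b-5p: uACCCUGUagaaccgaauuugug
miR-196a-5p: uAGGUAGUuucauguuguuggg
miR-196b-5p: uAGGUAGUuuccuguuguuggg
Neighbours are named by the order of the Hox genes' 3′ ends, so a microRNA gene can lie within a named Hox gene. The miR-10a gene lies between Hoxb5 and Hoxb4 (GRCm38.p6 chr11:96317186-96317208 for the mature form, plus strand). The miR-10b gene (chr2:74726074-74726096, plus strand) lies between the 3′ ends of Hoxd8 and Hoxd4, downstream of the Hoxd4 start given above. miR-10a-5p and miR-10b-5p share a seed and differ by U12A, counted from the 5′ end of miR-10a-5p. The 2 genes for miR-196a lie between Hoxb13 and Hoxb9 (chr11:96265187-96265208, plus strand) and between Hoxc10 and Hoxc9 (chr15:102973365-102973386, plus strand), and the gene for miR-196b between Hoxa9 and Hoxa10 (chr6:52230129-52230150, minus strand). miR-196a-5p and miR-196b-5p share a second seed and differ by A12C.

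The libraries held 10292262 (brain) to 14964934 (liver) reads, and the authors' peak lists 31594 (spleen) to 91712 (brain) positions. To compare windows within a library, reads were counted at their 5′ end in bins of 5 kb, and the count was divided by the library's own median autosomal bin, which held 16 reads in lung, 21 in kidney, 25 in spleen, 24 in liver and 14 in brain. This ratio is called the level. Spleen had the lowest share of its genome far above its median bin, with 0.333% of bins at a level of 4 or more, beside 2.5% in liver and 6.07% in brain. Libraries were also scaled to each other by medians of ratios over peak regions and by total reads, and these scalings differed most for spleen, by -0.66 on the log2 scale. Comparisons with spleen are therefore given by levels and under both scalings.

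Kidney and lung carried polymerase over the Hox clusters, and brain, liver and spleen carried little. Over the 4 windows together, 9967 kidney reads gave a level of 4.35 (95% Poisson interval 4.27 to 4.44) and 5621 lung reads a level of 3.22 (3.14 to 3.31). Brain followed at 1.44 (1.38 to 1.5), and spleen at 1.16 (1.12 to 1.2) and liver at 1.12 (1.08 to 1.16) had intervals that overlapped. In bulk tissue, fewer cells with polymerase on a cluster and less polymerase per cell cannot be told apart.

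Kidney had 175 of the authors' peaks in the windows and lung 88, while brain had 1 and liver and spleen 2 each, although brain had the longest peak list of all. A peak lay in 67 of 109 kidney bins (61.5%, exact binomial interval 51.7 to 70.6), against 9.07% of all kidney bins of the genome. In lung it was 43 bins (39.4%, 30.2 to 49.3), against 8.86%. In brain a peak lay in 1 bin (0.917%) against 10.5% of the genome, in liver in 2 (1.83%) against 6.74%, and in spleen in 2 (1.83%) against 5.15%. With every peak list thinned at random to the length of the spleen list, the shares were 40.4% in kidney (genome 4.78%) and 25.7% in lung (genome 4.87%). The Hox windows were thus above the genome's share of peak bins in kidney and lung and below it in the other 3 tissues.

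At a level of at least 2 the tissues divided in the same way. This level was reached in 84 kidney bins (77.1%, genome 15.5%) and 68 lung bins (62.4%, genome 16.2%). It was reached in 20 brain bins (18.3%, genome 20.6%), 2 liver bins (1.83%, genome 10.7%) and 2 spleen bins (1.83%, genome 5.17%). A level of at least 4 was reached in 52 kidney bins (genome 3.81%) and 35 lung bins (genome 4.04%), and in 0 bins of brain (genome 6.07%), liver (2.5%) and spleen (0.333%). At lower levels brain was above its genome's share, with 45.9% of Hox bins at a level of at least 1.5 (genome 30.9%), while liver, with 12.8% (genome 20.3%), and spleen, with 12.8% (genome 16%), stayed below theirs. The highest bin was at 14.7 in lung and 13.9 in kidney, but at 2.93 in brain, 2.83 in liver and 2.16 in spleen.

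**Figure D1:**
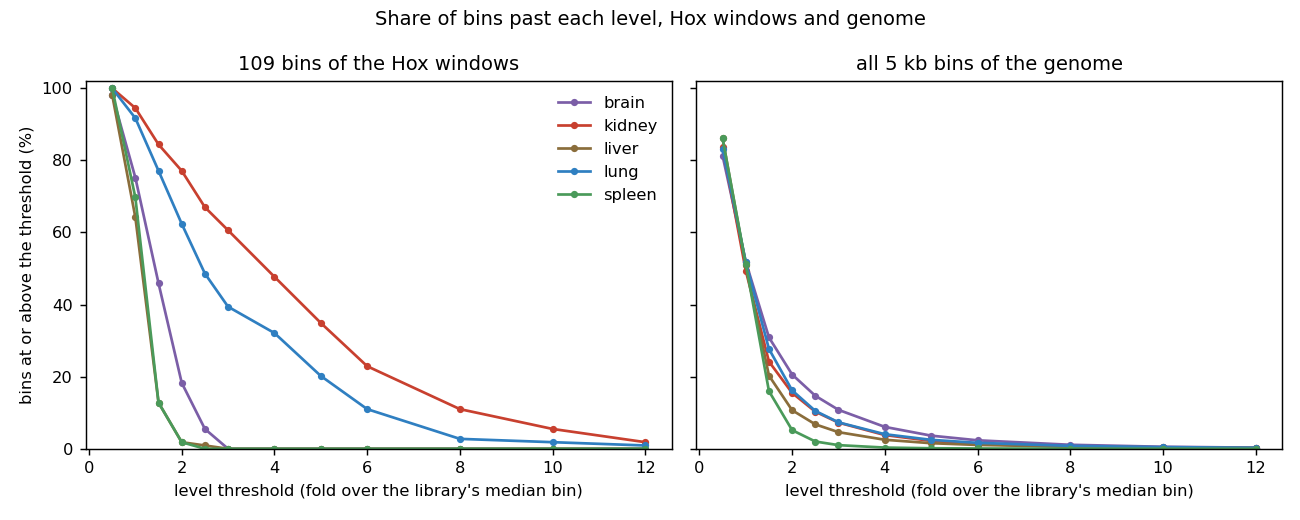
Share of 5 kb bins (%) at or above each level (fold over the library's own median bin), for the 109 bins of the Hox windows at left and all bins of the genome at right, 1 line per tissue. At left kidney (77.1% at a level of 2) and lung (62.4%) stand above the other 3 tissues, and at right the 5 lines run between 5.17% and 20.6% at that level.

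The low tissues were not empty of reads. Liver was under its own median bin in 39 of the 109 bins (35.8%), beside 49.1% of all its bins, and spleen in 33 (30.3%, genome 48.7%). Brain was under it in 27 (24.8%, genome 48.1%). The median Hox bin was at 1.08 in liver, 1.2 in spleen and 1.36 in brain, against 2.44 in lung and 3.9 in kidney. Liver and spleen were therefore near their own median bin over the Hox clusters. Against the mean bin, liver was at 1.05 in Hoxa, 0.865 in Hoxb, 0.805 in Hoxc and 0.819 in Hoxd. Spleen was at 1.27, 1.06, 0.985 and 1.01 in the same order. The reading thus depends on the baseline, and without an input library these values cannot show whether the clusters were depleted.

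The clusters differed from each other in level. Hoxa, the cluster of Hoxa5 and Hoxa11, was the highest in both kidney and lung. Its level was 6.06 (5.85 to 6.28) in kidney and 5.86 (5.62 to 6.11) in lung, and the intervals of these tissues overlapped. Brain was at 1.87 (1.73 to 2.02), above spleen at 1.37 (1.28 to 1.47) and liver at 1.33 (1.24 to 1.43). Sequence of the same length beside the window was at 1.35 and 1.33 in kidney, on the 3′ and the 5′ side, and at 1.26 and 1.38 in lung. It was at 0.932 and 0.847 in liver and at 1.01 and 0.98 in spleen, so these tissues too were higher over Hoxa than beside it.

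Hoxb, which holds Hoxb4 and the miR-10a gene, was at 4.83 (4.68 to 4.99) in kidney and 3.1 (2.96 to 3.24) in lung. It was at 1.31 in brain, 1.14 in spleen and 1.1 in liver. Here the kidney and lung intervals were apart. The flank on its 5′ side was itself raised, at 2.22 in brain, 2.12 in kidney, 2.03 in lung, 1.68 in liver and 1.3 in spleen, and brain, liver and spleen were each lower over Hoxb than over that flank.

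Hoxd, with Hoxd11 and Hoxd13 on its 5′ side, was at 3.62 (3.45 to 3.79) in kidney and 2.29 (2.14 to 2.46) in lung. Brain was at 1.47, spleen at 1.09 and liver at 1.04. Hoxc, which begins at Hoxc4, was the lowest cluster in kidney, at 2.72 (2.58 to 2.86), and in lung, at 1.75 (1.63 to 1.89). Brain was at 1.21 over Hoxc, spleen at 1.06 and liver at 1.02. The lung level over Hoxc lay near that of its 3′ flank, which was at 1.64, and above that of its 5′ flank, at 1.25 (1.14 to 1.36). Liver and spleen were lower over Hoxc than over its 3′ flank, at 1.5 and 1.38. They were also lower than over its 5′ flank, at 1.16 and 1.17, with overlapping intervals. Over Hoxd, liver lay between its 3′ flank at 1.48 and its 5′ flank at 0.941.

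**Figure D2:**
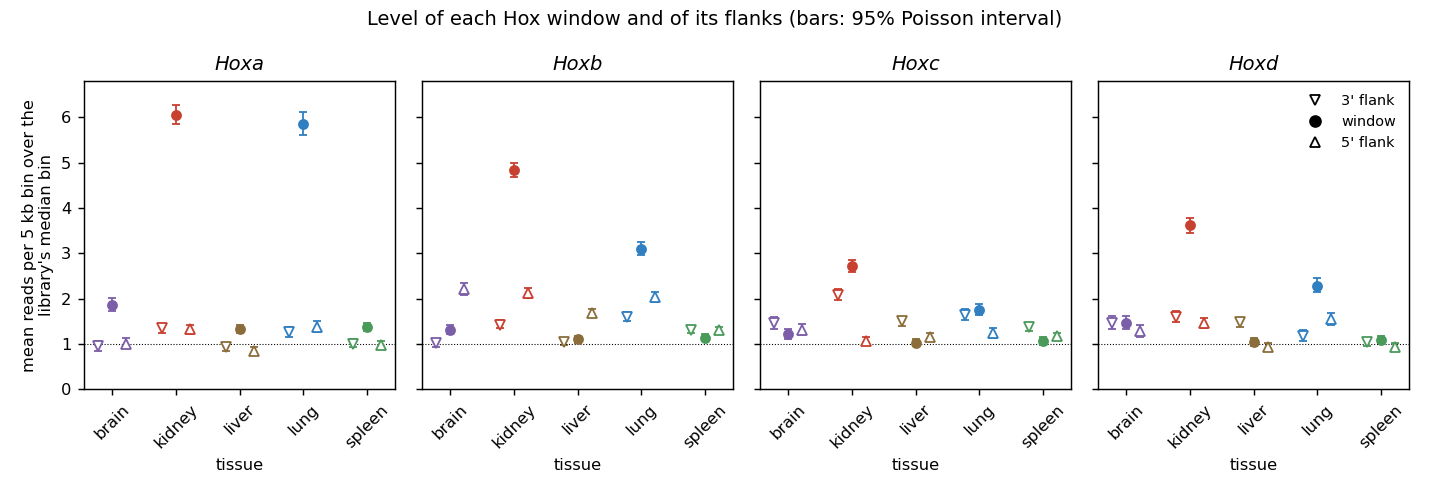
Mean reads per 5 kb bin over the library's median bin, for each Hox window (filled circles) and for flanks of the same length (open triangles), by tissue, with 95% Poisson intervals as bars. Kidney and lung stand apart from their flanks over Hoxa (6.06 and 5.86), and over Hoxc the lung value of 1.75 is close to its 3′ flank at 1.64 and above its 5′ flank at 1.25.

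Set against liver, the kidney level was 4.55-fold higher over Hoxa (4.2 to 4.93), 4.39-fold over Hoxb, 3.47-fold over Hoxd and 2.66-fold over Hoxc. These ratios stayed between 2.49 and 4.26 with medians of ratios. The lung level was 4.39-fold over that of liver in Hoxa, 2.82-fold in Hoxb and 1.71-fold in Hoxc, and 3.02, 1.94 and 1.18 with medians of ratios. Kidney was at least 2-fold over liver in 79 of 109 bins (genome 3.25%) and lung in 63 (genome 4.49%). Against brain it was 68 bins in kidney (genome 2.19%) and 45 in lung (genome 2.22%). By medians of ratios the counts over liver were 77 in kidney (genome 2.69%) and 43 in lung (genome 1.34%), and over brain 81 (genome 4.4%) and 48 (genome 2.46%).

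The comparison with spleen depended on the scaling. By levels, lung was 2.77-fold over spleen across the 4 windows (2.65 to 2.89), by total reads 2.17-fold (2.08 to 2.27), and by medians of ratios 1.05-fold (1 to 1.1). Over Hoxa lung was above spleen in all 3, at 4.28-fold, 3.36-fold and 1.62-fold in the same order. Over Hoxb it was 2.71-fold, 2.12-fold and 1.03-fold. Over Hoxc lung was 1.65-fold by levels and 1.29-fold by total reads, and over Hoxd 2.1-fold and 1.65-fold. By medians of ratios alone the direction turned, to 0.625 of spleen in Hoxc and 0.796 in Hoxd. Kidney was above spleen in each window in all 3, with a ratio over the 4 windows of 3.74 by levels, 3.03 by total reads and 1.93 by medians of ratios. The number of bins with kidney at least 2-fold over spleen was 77 by levels (genome 7.01%), 70 by total reads (genome 4.03%) and 45 by medians of ratios (genome 1.03%). For lung it was 55 (genome 6.98%), 47 (genome 3.44%) and 10 (genome 0.263%).

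In 47 of 109 bins, kidney and lung were both at a level of at least 2 while brain, liver and spleen were below 2, against 1.04% of bins over the genome. Hoxb gave 17 of them, Hoxa 12, and Hoxc and Hoxd 9 each. In Hoxa, brain also reached a level of 2 in 11 of the 24 bins. A bin counts as restricted where 1 tissue has 20 reads or more and its normalised count is 4 times that of each of the others. No Hox bin was restricted to a single tissue under either scaling. Over the genome the rule called 0.0554% of bins for kidney, 0.00697% for lung, 0.0225% for brain, 0.174% for liver and 0.155% for spleen by medians of ratios. By total reads it called 0.059%, 0.0271%, 0.17%, 0.238% and 0.00378% in the same order.

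In Hoxa and in Hoxb, 1 bin each was at least 4-fold above brain, liver and spleen in both kidney and lung when scaled by total reads (2 in all), and 0 by medians of ratios (genome 0.00299% and 0.00139%). The first, chr6:52150001-52155000 in the middle of Hoxa, held 224 kidney and 235 lung reads, beside 44 in liver, 38 in spleen and 26 in brain. The second, chr11:96130001-96135000 in Hoxb, held 291 kidney and 90 lung reads, beside 19 in liver, 17 in spleen and 12 in brain. Lung was the higher of the pair by level in the first, at 14.7 against 10.7, and kidney in the second, at 13.9 against 5.62.

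**Figure D3:**
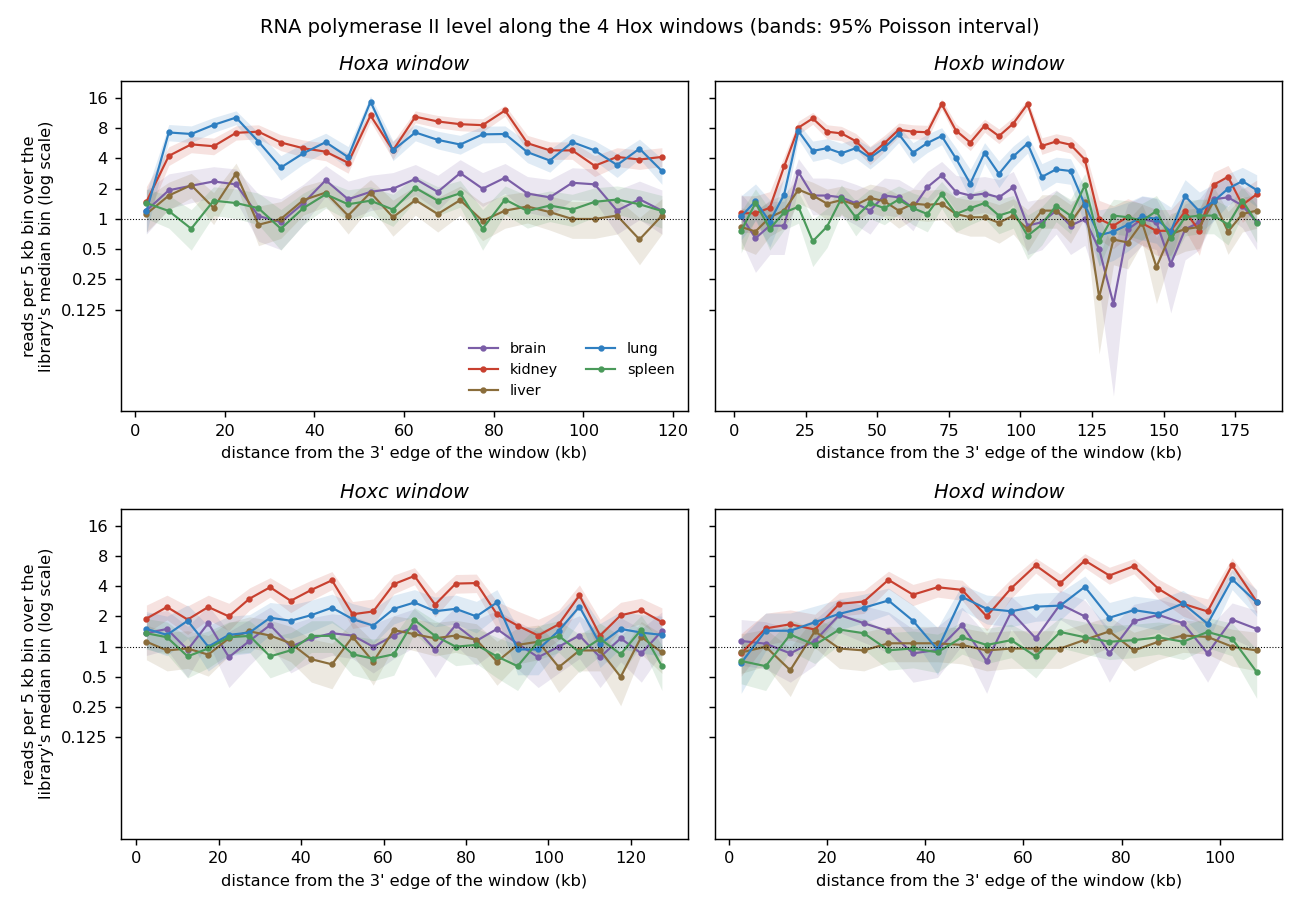
Polymerase level (reads per 5 kb bin over the library's median bin, log scale) against distance from the 3′ edge of each Hox window in kb, 1 line per tissue, with 95% Poisson intervals as bands. Kidney and lung are raised over the whole of Hoxa beyond its first bin and, in Hoxb, from the bin at 22.5 kb to the bin at 117.5 kb, and the other 3 tissues stay below a level of 3 throughout.

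Hoxa was covered almost from edge to edge. Its first bin at the 3′ edge was at 1.48 in kidney and 1.19 in lung, and the next was at 4.24 and 7.25. From there all bins were at a level of at least 2 in both tissues, a run of 24 bins or 120 kb that went 1 bin past the 5′ edge. In kidney 276 of 22706 runs of such bins in the genome were at least as long, and in lung 197 of 29296. The longest run was 3 bins in brain and 1 bin in liver and in spleen.

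Along Hoxa, kidney reads were highest in the third of 4 nearly equal segments from the 3′ edge, at 9.11 (8.59 to 9.65), against 5.18, 5.76 and 4.2 in the first, second and last. Lung was flatter, at 6.69, 6.2, 6.24 and 4.31. The kidney maximum was the bin chr6:52180001-52185000, with 251 reads and a level of 12 (10.5 to 13.5), where lung had 112 reads and a level of 7. The lung maximum was the bin chr6:52150001-52155000 named above. In liver the highest bin was chr6:52120001-52125000, with 68 reads and a level of 2.83 (2.2 to 3.59), and there lung was at 10.2 and kidney at 7.19.

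In Hoxb the polymerase domain had sharp ends inside the window. At the 3′ side, bins 3 to 5 rose from 1.29 to 3.33 and 8.1 in kidney, and from 0.938 to 1.75 and 7.5 in lung. At the 5′ side, bins 24 to 26 fell from 5.48 to 3.9 and 1 in kidney, and from 3 to 1.38 and 0.688 in lung. Between these ends, kidney held a run of 22 bins or 110 kb at a level of at least 2, chr11:96110001-96220000, and lung one of 20 bins or 100 kb, chr11:96115001-96215000. All 5 tissues then stayed below 2 for the 8 bins of chr11:96070001-96110000.

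Beyond that gap, towards the Hoxb13 end, kidney rose again to 2.19 and 2.62 in the bins from chr11:96060001-96070000, where it had 1 peak. Lung reached 2 and 2.38 in chr11:96060001-96065000 and chr11:96055001-96060000, without a peak. Brain, liver and spleen were between 0.75 and 1.64 over these 3 bins. The kidney maximum of Hoxb was chr11:96160001-96165000, with 292 reads and a level of 13.9 (12.4 to 15.6). Lung, brain and liver all had their highest Hoxb bin at chr11:96210001-96215000, the first strong bin from the 3′ side, with 120, 41 and 47 reads and levels of 7.5, 2.93 and 1.96.

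Hoxc had no segment above 3.36 in kidney. Its segments from the 3′ edge were at 2.29, 3.36, 3.32 and 1.94 in kidney and 1.39, 2.02, 2.18 and 1.45 in lung, so both tissues were higher in the middle than at the ends. All 16 kidney peaks of Hoxc lay in the middle segments. The bin chr15:102805001-102810000 was the highest of Hoxc in kidney (106 reads, level 5.05) and spleen (46 reads, 1.84). In lung it held 44 reads (level 2.75), as did the bin chr15:102785001-102790000, and no other lung bin of Hoxc held more. The longest kidney run was 15 bins or 75 kb, and the longest lung run 6 bins or 30 kb.

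Hoxd was higher on its 5′ side than on its 3′ side, and kidney was highest in the third segment and lower again in the last. The kidney segments were at 1.64, 3.38, 5.36 and 4.05 and the lung segments at 1.49, 2.26, 2.64 and 2.71, and the Hoxd1 end was the lowest in both. The kidney run of 21 bins, 105 kb, began at chr2:74590000 and continued past the Hoxd13 end of the window to chr2:74485001. The highest kidney bin was chr2:74535001-74540000, with 151 reads and a level of 7.19, and the highest lung bin chr2:74505001-74510000, with 75 reads and 4.69. In brain, the bin chr2:74540001-74545000 held 37 reads and a level of 2.64, the highest of Hoxd in that tissue, and liver (0.958) and spleen (1.4) were lower there.

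The mean position of the reads above background, from 0% at the 3′ edge to 100% at the 5′ edge, put numbers on this. It was 60.2% in kidney and 60.8% in lung for Hoxd, and 39.2% and 37.2% for Hoxb, with overlapping kidney and lung intervals for both. In Hoxc it was 46.7% in kidney and 49.8% in lung, again with overlapping intervals. In Hoxa the tissues were apart, at 50.7% (49.7 to 51.8) in kidney and 46.4% (45.1 to 47.7) in lung. Counted by peaks in place of reads, the mean position in Hoxa was 50.5% in kidney and 49.9% in lung. In Hoxb it was 39.6% in kidney and 30.9% in lung, and in Hoxd 60.8% and 58.3%. These positions depend on where the window edges lie. The Hoxb window includes a stretch near background on its 5′ side, so its value shows where the domain sits in the window. It does not show a lean towards the 3′ side within the domain.

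Kidney and lung rose and fell along the clusters together, as they did over the genome. Across the 109 bins, the log2 levels of kidney and lung had a Pearson correlation of 0.85, equal to that over 471467 autosomal bins of the genome. Within a cluster it was 0.91 in Hoxb, 0.75 in Hoxa, 0.73 in Hoxc and 0.68 in Hoxd. These are correlations across neighbouring bins, which are not independent and share sequence composition and mappability between libraries. For brain and lung the values were 0.75 in Hoxb, 0.60 in Hoxa, 0.53 in Hoxd and 0.41 in Hoxc. Across the 109 bins brain and lung had a correlation of 0.69, against 0.81 over the genome.

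The ratio of kidney to lung was not the same along the clusters. Over whole windows it was 1.03 (0.98 to 1.09) in Hoxa and 1.56, 1.55 and 1.58 in Hoxb, Hoxc and Hoxd by levels, and 1.41, 2.13, 2.11 and 2.15 by medians of ratios. In Hoxa the segments from the 3′ edge gave 0.775 (0.694 to 0.866), 0.93, 1.46 (1.32 to 1.61) and 0.974. With medians of ratios the same segments gave 1.06, 1.27, 1.99 and 1.33, and with total reads 0.8, 0.96, 1.51 and 1.01. Lung was thus above kidney in the first segment of Hoxa by levels and by total reads, and not by medians of ratios. The contrast within Hoxa needs no scaling: the kidney-to-lung ratio of the 5′ side was 1.48 times that of the 3′ side (1.33 to 1.66).

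The same contrast of sides was 1.28 in Hoxd (1.07 to 1.53), 1.13 in Hoxb (1.01 to 1.28) and 0.87 in Hoxc (0.726 to 1.04). Hoxc was the cluster whose interval spanned 1. With the last segment set against the first, the contrast was 1.26 in Hoxa (1.06 to 1.49) and 1.36 in Hoxd (1.02 to 1.81). It was 0.813 in Hoxc (0.607 to 1.09) and 0.646 in Hoxb (0.52 to 0.801), so the direction in Hoxb depended on the segments compared. In Hoxb the third segment had the highest ratio, 2.11 (1.88 to 2.37), against 1.42, 1.55 and 0.914 in the first, second and last. In Hoxd the third segment was also highest, at 2.03 (1.73 to 2.39), against 1.1, 1.5 and 1.49. The last segment of Hoxb was near background in both tissues, so its ratio carries little.

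By bins, kidney was above lung in 87 of 109 by levels (genome 48.6%): 13 of 24 in Hoxa, 30 of 37 in Hoxb, 25 of 26 in Hoxc and 19 of 22 in Hoxd. By medians of ratios it was 101 (genome 75.5%), with 19, 34, 26 and 22 in the same order, and by total reads 89 (genome 51.7%). Kidney was at least 2-fold over lung in 16 bins (14.7%, genome 1.63%), of which 8 were in Hoxb, 4 in Hoxc, 4 in Hoxd and 0 in Hoxa. The 2-fold count was 42 bins by medians of ratios (genome 4.12%), 4 of them in Hoxa. Lung was at least 2-fold over kidney in 0 bins both ways (genome 1.84% and 0.506%). The largest ratio was 4.17 (2.38 to 7.78), at chr2:74565001-74570000 in Hoxd, with 82 kidney and 15 lung reads. The smallest with an interval below 1 in Hoxa was 0.585 (0.438 to 0.777), at chr6:52105001-52110000, with 89 kidney and 116 lung reads, or 0.797 by medians of ratios.

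**Figure D4:**
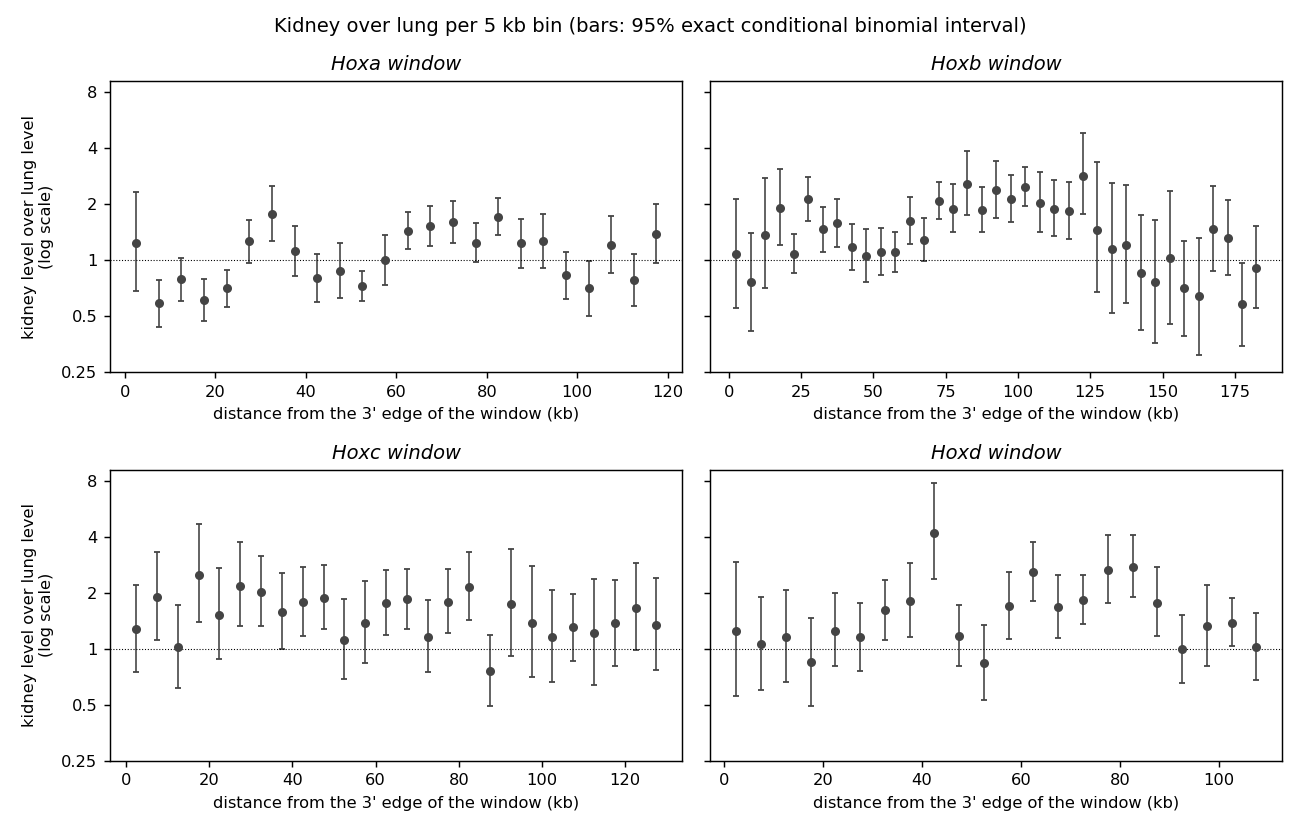
Kidney level over lung level per 5 kb bin (log scale) against distance from the 3′ edge of each window in kb, with 95% exact conditional binomial intervals as bars and a dotted line at equal levels. In Hoxa the points lie on both sides of the line, in Hoxc 25 of 26 lie above it, and in Hoxd the bin at 42.5 kb is highest at 4.17.

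Peaks of all tissues, each widened by 250 bp to both sides and merged, formed 174 regions in the windows: 78 in Hoxa, 56 in Hoxb, 17 in Hoxc and 23 in Hoxd. Kidney had a peak in 158 of them, lung in 81, liver and spleen in 2 each and brain in 1. Regions with a peak in kidney alone were 93 (53.4%, against 14.2% of 186413 regions over the genome), and with a peak in kidney and lung and no other tissue 60 (34.5%, against 3.52%). No region had a peak in 4 or 5 tissues, against 4.47% and 4.64% over the genome. Of the lung regions, 80.2% also had a kidney peak (genome 49%), and of the kidney regions 41.1% had a lung peak (genome 44.2%). Kidney had the deeper library, and its peak list was longer.

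**Figure D5:**
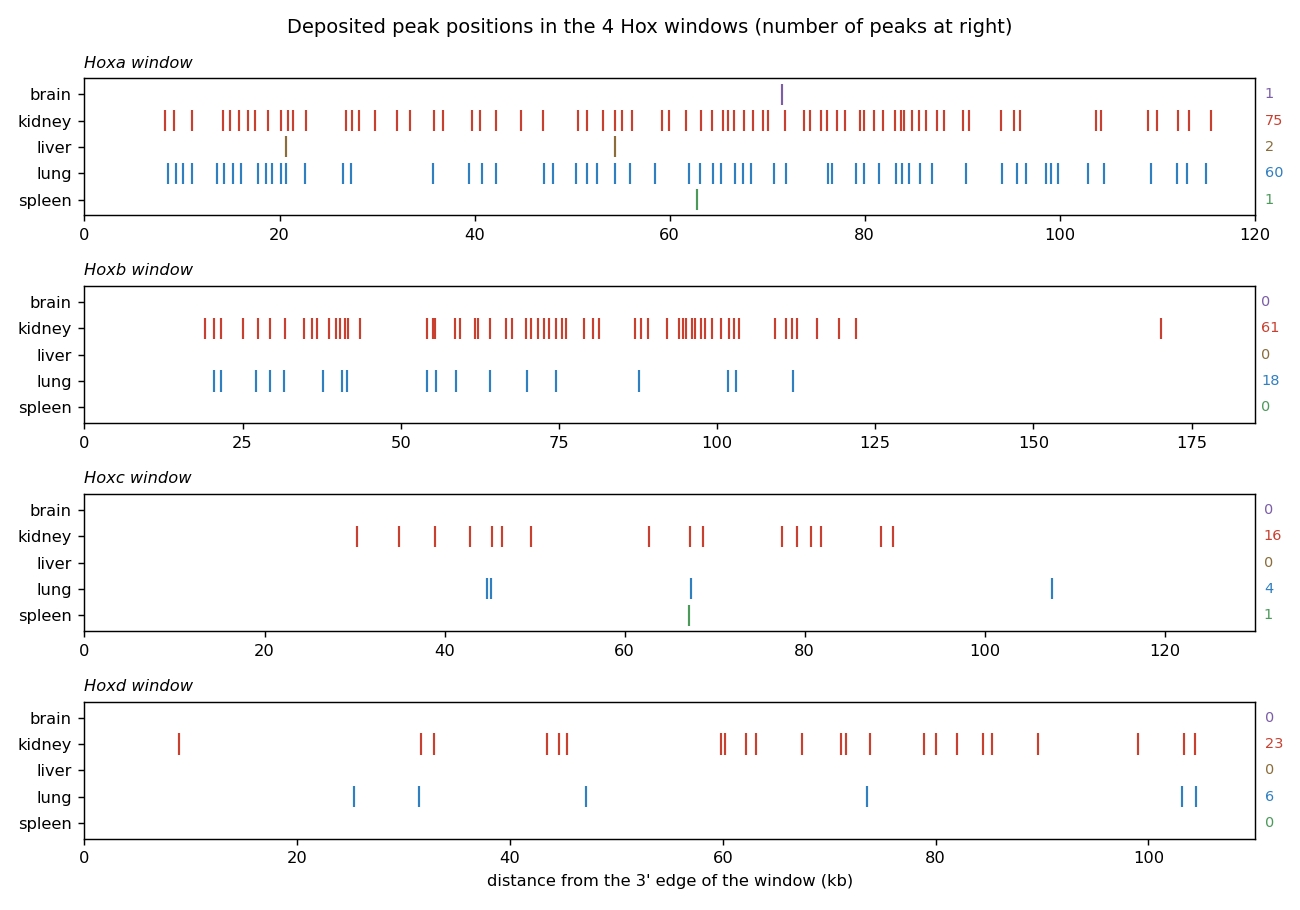
Positions of the authors' peaks along each Hox window (distance from the 3′ edge in kb), 1 line of ticks per tissue, with the number of peaks at right. Kidney has 75, 61, 16 and 23 peaks in Hoxa, Hoxb, Hoxc and Hoxd, lung has 60, 18, 4 and 6, and brain, liver and spleen together have 5.

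By reads within these regions, 11 of 174 (6.32%) were restricted to kidney, beside 0.812% of regions over the genome: 6 in Hoxb, 4 in Hoxa, 1 in Hoxd and 0 in Hoxc. None was restricted to another tissue, beside 0.116% of regions over the genome for lung, 0.327% for spleen, 0.573% for brain and 1.96% for liver. The one with the most reads was chr2:74529671-74530171 in Hoxd, with 51 kidney reads, 8 in lung, 4 in spleen, 2 in brain and 1 in liver. In Hoxb the first was chr11:96131236-96131736, with 41 kidney reads, 9 in lung, 3 in brain and 1 each in liver and spleen. The 4 in Hoxa had only 20 to 24 kidney reads each, at the minimum of 20 or just above it. The regions were formed from peaks, and 90.8% of the 174 had a kidney peak, against 39.3% over the genome. Few of the 174 had a peak of brain, liver or spleen. The genome's shares are therefore not a like background for these counts, and no conclusion is drawn from the difference.

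By medians of ratios, 2 regions were at least 4-fold above the other 3 tissues in kidney and lung both, beside 0.022% over the genome. In Hoxa this was chr6:52127086-52127681, with 63 kidney and 24 lung reads, 6 in liver, 2 in brain and 0 in spleen. In Hoxb it was chr11:96131806-96132636, with 75 kidney and 32 lung reads, 5 in liver, 2 in spleen and 1 in brain. By total reads 5 regions passed (genome 0.0558%). The limit given above for the genome's shares of regions holds here too. The Hoxb region lies beside the kidney-restricted one at chr11:96131236-96131736, so neighbouring regions of a cluster fell on different sides of the rule.

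The region with the most normalised reads in Hoxa was chr6:52182881-52184281, with 112 kidney reads, 48 in lung, 13 in spleen, 10 in liver and 7 in brain. The next, chr6:52162506-52163481, held 85 kidney, 39 lung and 21 spleen reads, with 8 in brain and 4 in liver. Lung led in the next pair: chr6:52119931-52121081 held 70 lung and 53 kidney reads and 37 in liver, and chr6:52154131-52154681 held 67 lung and 61 kidney reads and 18 in liver. In each of these 4 regions kidney and lung were both above brain. They were ranked by their highest count in any tissue and each had a kidney and a lung peak. That order among tissues therefore follows largely from the choice of regions.

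In Hoxb, after the region shared by kidney and lung named above, the highest were chr11:96207286-96208131 (60 kidney, 26 lung reads) and chr11:96160231-96160736 (59 kidney, 27 lung reads), with 5 to 12 reads in each other tissue. In Hoxc the highest was chr15:102829496-102830496, with 40 kidney, 23 lung and 14 spleen reads, 4 in brain and 2 in liver. In Hoxd it was chr2:74506431-74507046, with 53 kidney and 17 lung reads, 10 in brain, 6 in spleen and 3 in liver. The leading region of Hoxc held fewer kidney reads than those of the other clusters.

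The 5 peaks listed for brain, liver and spleen lay at places where kidney and lung also had reads. The brain peak, chr6 position 52171486, had 10 brain reads within 250 bp, beside 26 in kidney and 12 in lung. The liver peak at 52120676 had 23 liver, 23 kidney and 31 lung reads and lay 10 bp from a lung peak. The liver peak at 52154381 had 18 liver, 56 kidney and 61 lung reads and lay 5 bp from a lung peak. The spleen peaks, at 52162756 in Hoxa and chr15 position 102807861 in Hoxc, had 16 and 11 spleen reads, beside 35 and 18 in kidney and 22 and 9 in lung. In 4 of the 5 a peak of kidney or lung was within 330 bp, and for the brain peak the nearest was a kidney peak at 345 bp. Peaks were dense in Hoxa, with median gaps of 1050 bp in kidney and 1375 bp in lung, so many positions there lie near one. The share of other positions as near to a peak was not counted, so no conclusion is drawn from these distances.

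Kidney peaks of Hoxa and Hoxb stood out less from the sequence around them than kidney peaks over the genome. The median kidney peak of Hoxa had a read density at its centre, within 250 bp, of 1.37 times that of the sequence 1 to 5 kb away, and that of Hoxb 1.61 times, against 2.02 over all kidney peaks. The level 1 to 5 kb away was 7.02 in Hoxa and 7.38 in Hoxb, against 3.93 over all kidney peaks, while centre reads had medians of 17 and 22 against 16. Kidney peaks of Hoxd (2.04) and Hoxc (2.22) were near the genome's value. In lung the median was 1.5 in Hoxa and 2.44 in Hoxb, against 2.44 over all lung peaks. Median gaps between neighbouring Hoxa peaks were 1050 bp in kidney, against 2250 bp over the genome, and 1375 bp in lung, against 3000 bp. In Hoxb the median gap was 1200 bp in kidney and 5050 bp in lung. The sequence 1 to 5 kb from a Hoxa peak, or from a kidney peak of Hoxb, can therefore hold other peaks. For that reason these values cannot show whether Hoxa, or Hoxb in kidney, was raised between its peaks.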

How the data were processed

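RNA polymerase II was measured by chromatin immunoprecipitation and sequencing in 1 library for each of 5 tissues. The authors deposited, per tissue, a list of aligned reads (chromosome, start, end, strand) and a list of peak positions with no width or score. Bowtie was used, per the submitters' processing notes; its version and settings, the peak caller and its settings are also not given in the sources used here. No input library was used here. The build was taken as mm9 from the extent of the reads: the last read lay within 1000 bp of the mm9 chromosome end on 18 of 21 chromosomes and past it on 0.

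Reads of 34 to 36 bases were counted once, at the 5′ end, in 5 kb bins starting at the windows' first base. The level is the count over the library's median autosomal bin. Medians of ratios, taken over the 8222 merged peak regions where no tissue had under 20 reads, gave factors of 1.03 (brain), 1.09 (kidney), 1.17 (liver), 1.13 (lung) and 0.671 (spleen); total reads gave 0.823, 1.1, 1.2, 0.867 and 1.06. On the log2 scale the 2 sets differed by 0.33, -0.01, -0.03, 0.39 and -0.66. Restricted bins or regions held at least 20 reads and 4 times every other tissue, with counts under 3 set to 3, and this rule was tested on simulated data. Bins at least 2-fold over another tissue were also at a level of at least 2.

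Intervals are 95% exact Poisson for levels, exact conditional binomial for ratios, a normal approximation for mean positions and Clopper-Pearson for shares. Named items were, per window, the bin with the most reads in each tissue, the 5 regions with the highest normalised count, and every restricted or shared call, of which some are given. Other bins and the 5 peaks of brain, liver and spleen were chosen after their values were seen. The members, windows and comparisons were chosen with earlier results of these data known. Alternatives covered bin size and grid, peak number, repeated reads, read position, fold, read minimum, depth, scaling, background, window edges and leaving out spleen. The software was Python 3.11.15, SciPy 1.17.1, NumPy 2.4.6, Matplotlib 3.10.9 and pandas 2.3.3. Sequences are from RefSeq, build GRCm38.p6, whose coordinates were not converted.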

Additional observations from a re-analysis of the deposited data

How the results depend on the processing

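No paired analysis was possible because each tissue had 1 library, and for the same reason no library could be left out within a tissue. Depth limits single bins: a median bin held 14 to 25 reads. All alternatives for tissue ratios, segments, restricted regions and bins shared by kidney and lung were added after the data were seen. Counting 1 read per position and strand moved 3 values beyond their interval or 1.5 times and left 52 within. Moving reads 100 bp moved none of the 5 shares of bins at a level of 2, the only values run so. Read minimums and thinning to the smallest library were run only on bins restricted to 1 tissue, of which there were 0 at the start, so they say nothing about stability.

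The share of Hox bins with a peak became 0.369% in brain, 0.738% in liver, 24.7% in lung and 0.738% in spleen with 2 kb bins, and 1.89% in brain, 3.77% in liver and 3.77% in spleen with 10 kb bins. With peak lists thinned to equal number it was 40.4% in kidney and 25.7% in lung. The share at a level of 2 became 11.9% in brain and 0.917% in spleen with 1 read per position and strand, 9.43% in brain, 0% in liver and 0% in spleen with 10 kb bins, 45.9% in brain, 12.8% in liver and 12.8% in spleen at a fold of 1.5, and 0% in brain, 0% in liver, 0% in spleen and 39.4% in lung at a fold of 3. Over the genome the shares at a fold of 1.5 were 30.9% in brain, 20.3% in liver and 16% in spleen. Bins restricted to kidney became 27 at a fold of 2 (genome 0.45%), 3 at a fold of 3 (0.129%) and 1 on a grid shifted by 2.5 kb (0.0526%). Bins restricted to spleen became 4 at a fold of 2 (genome 15.8%) and 1 at a fold of 3 (1.54%). Bins high in kidney and lung became 2 with total reads (genome 0.00299%), 4 without spleen (0.00378%) and 7 at a fold of 2 (0.0215%), and regions restricted to kidney 17 without spleen (1.17%).

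Against the mean bin in place of the median, the levels were lower. For Hoxa they were 4.51 in kidney, 4.22 in lung, 1.24 in brain, 1.05 in liver and 1.27 in spleen. For Hoxb they were 3.6, 2.23, 0.864, 0.865 and 1.06 in the same order, for Hoxc 2.02, 1.26, 0.799, 0.805 and 0.985, and for Hoxd 2.69 in kidney, 1.65 in lung, 0.97 in brain and 0.819 in liver. Without 5 kb at both edges, Hoxa was at 6.36 in kidney and 6.2 in lung, Hoxb at 5.03 and Hoxd at 3.8 in kidney. Hoxb was at 1.21 in brain with 1 read per position and strand. With no background removed, the mean read position was 41.5% in kidney and 41.3% in lung for Hoxb, and 57.4% and 56.1% for Hoxd. By peaks it was 49.9% for Hoxa and 30.9% for Hoxb in lung.

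With medians of ratios, bins at least 2-fold became 42 for kidney over lung, 45 for kidney over spleen and 10 for lung over spleen. Lung over spleen reversed to 0.625 in Hoxc and 0.796 in Hoxd, and kidney over lung to 1.06, 1.27 and 1.33 in the first, second and last segment of Hoxa and 1.25 in the last of Hoxb. The other segments moved to 1.99 in Hoxa, to 1.93, 2.11 and 2.88 in Hoxb, to 2.25, 2.27, 2.08 and 1.83 in Hoxc and to 2.04, 2.77 and 2.04 in the last 3 of Hoxd. With total reads, the last segment of Hoxa reversed to 1.01. The fold, bin size, thinned lists and shorter window change these values by construction, and for the others the cause was not tested.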
